A study of Homo sapiens with 4 samples.

Results

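The S100 family was followed through 4 RNA sequencing libraries of the human myeloma line ARP-1: 2 from carfilzomib-resistant cells (CfzR, replicates 1 and 2) and 2 from wild-type cells (WT, replicates 1 and 2). Carfilzomib is an irreversible proteasome inhibitor used against myeloma. The labels do not say at which dose resistance was selected, whether the drug was present at harvest, whether the resistant cells are a clone or a pool, or whether replicates were separate cultures, so the errors and p-values below cover only the scatter among the libraries and could be technical. The members were the 10 symbols S100A4, S100A6, S100A10, S100A11, S100A13, S100A16, S100PBP, S100A2, S100A3 and S100A5, found by Ensembl gene ID. Of the 10, 6 had a row in the table of 15201 genes, and all 6 passed the filter on low values described with the methods, S100A4 only through its WT values. S100A16, S100A2, S100A3 and S100A5 had no row and are not analysed here. The family was picked because S100A4 had already been seen to differ in this comparison, so the members' differences are given as a description, with no test.

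S100 proteins are small calcium sensors built around a pair of EF-hands, the helix-loop-helix motif that holds calcium, and they work mostly as dimers. Calcium binding opens a surface on which each S100 protein docks its own partners, and some members are also released from cells and act on receptors such as RAGE. Most of the human genes lie in a cluster in band 1q21, a region whose extra copies are a common lesion of multiple myeloma. S100A4 binds the heavy chain of nonmuscle myosin IIA and is known for its link to cell motility and metastasis.

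S100A4 (ENSG00000196154) lies on chromosome 1 at 153543613 to 153550136, on the minus strand, in the GENCODE release 29 annotation of GRCh38. All positions here are that release's and were matched by gene ID, since the build behind the deposited values is not given in the sources used here. S100A6 ends 7.37 kb below S100A4 and S100A13 begins 68.7 kb above it, both on the minus strand. S100A10 and S100A11 lie 1.55 and 1.496 Mb below it, outside its immediate cluster. S100PBP is on the short arm of the same chromosome at 32816767 to 32858879. S100A5, which has no row, lies between S100A6 and S100A4, at 153537147 to 153541765. The promoters of S100A4 and of S100A6, its nearest neighbour with a row, are shown because these genes lie close together and differed most among the members. Each runs from 250 bases before to 50 bases after the start in RefSeq (GRCh38.p14, minus strand). The windows are chr1:153545757-153546056 for S100A4 and chr1:153535942-153536241 for S100A6. That of S100A4 lies inside its GENCODE span, below the end at 153550136, and so rests on a different start. Capitals mark CG dinucleotides, the sites of DNA methylation, and the letters TATAAA.
S100A4: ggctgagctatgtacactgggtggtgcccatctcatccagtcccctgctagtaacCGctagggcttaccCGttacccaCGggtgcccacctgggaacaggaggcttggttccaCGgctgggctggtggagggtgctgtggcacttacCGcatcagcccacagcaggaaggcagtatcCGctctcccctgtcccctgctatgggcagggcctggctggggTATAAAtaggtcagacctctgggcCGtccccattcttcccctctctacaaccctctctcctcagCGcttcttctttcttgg
S100A6: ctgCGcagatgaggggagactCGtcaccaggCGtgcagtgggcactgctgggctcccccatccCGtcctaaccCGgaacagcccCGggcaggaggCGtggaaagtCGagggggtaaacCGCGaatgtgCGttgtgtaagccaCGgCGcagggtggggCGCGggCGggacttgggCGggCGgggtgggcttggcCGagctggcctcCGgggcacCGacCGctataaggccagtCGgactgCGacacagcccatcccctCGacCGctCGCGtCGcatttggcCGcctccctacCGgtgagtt
The S100A4 window held 8 CG dinucleotides against 31 in the S100A6 window, and the median over 35116 RefSeq promoters of the same length was 14. Windows of S100A10 and S100A11 held 32 and 22. Those at the annotated starts of S100A13 held 19, 11 and 12, and those of S100PBP held 1, 26 and 24. Of all RefSeq promoters, 41.6% held no more CG dinucleotides than that of S100A4. TATAAA, searched on both strands, began 31 bases before the S100A4 start and occurred in 11.5% of all windows. It was in none of the windows of S100A6, S100A10, S100A11 and S100PBP, and in 1 of the 3 annotated starts of S100A13. A match is a string of letters and not a shown binding site.

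The authors deposited FPKM, fragment abundance per kilobase of transcript and per unit of library size, which hold no read counts, so depth is unknown. Medians over all genes were 7.75 and 7.73 FPKM in CfzR replicates 1 and 2, against 7.50 and 7.74 FPKM in WT replicates 1 and 2. CfzR replicate 1 stood apart by transcript length. Across genes, its log2 difference from CfzR replicate 2 correlated with length with a Spearman coefficient of 0.466, against 0.146 within the WT pair, a description over 12896 genes that share their libraries. Most S100 transcripts are short, so this library's values are set beside each result. The plasma cell identity of the line showed in 9 of 10 markers with a row (TNFRSF13B had none), whose summed level was 6134 to 6700 FPKM in CfzR and 5915 to 5990 FPKM in WT. Most of that sum was the antibody joining chain JCHAIN, at 4601 and 3838 FPKM in CfzR and 3613 and 3493 FPKM in WT. The antigen CD138 (SDC1) stood at 272 and 213 FPKM in CfzR and at 205 and 190 FPKM in WT, the receptor BCMA (TNFRSF17) at 194 and 275 FPKM in CfzR and 312 and 382 FPKM in WT, and the plasma cell factor XBP1 at 800 and 868 FPKM in CfzR and 953 and 1084 FPKM in WT. S100A8 and S100A9, abundant S100 proteins of monocytes, had no row, and of 8 monocyte markers only CD68 had one, at 1.09 to 2.10 FPKM in CfzR and 0.681 to 0.848 FPKM in WT. Of 8 T and NK cell markers only the receptor constant gene TRAC had a row, at 27.4 to 29.4 FPKM in CfzR and 9.90 to 15.9 FPKM in WT. Of 6 fibroblast markers only PDGFRB had one, at 4.75 to 6.01 FPKM in CfzR and 3.56 to 4.01 FPKM in WT. Of 5 epithelial markers KRT8 and KRT18 had rows, with a summed level of 2.10 to 3.70 FPKM in CfzR and 6.28 to 6.79 FPKM in WT, and of 5 B cell markers only BACH2 had one, at 1.11 to 1.67 FPKM in CfzR and 1.27 to 2.14 FPKM in WT. The part of any of these markers in the S100 results was not tested.

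S100A4 had 0.416 and 0.788 FPKM in CfzR replicates 1 and 2, against 209 and 240 FPKM in WT replicates 1 and 2. Its mean level was 372 times as high in WT as in CfzR, and the groups lay far apart. Ranked from the highest level, S100A4 was gene 585 and 563 of 15201 in WT, and gene 14670 and 13999 in CfzR, so a transcript among the more abundant of the parental line was close to the floor of the table in the resistant cells. In log2(FPKM + 1), a scale that compresses differences between low values, the difference CfzR minus WT was -7.14, the lowest of the 13411 genes tested. The rank depends on the scale: with a pseudocount of 0.1 S100A4 stood at -8.37 and CST3 below it at -9.48. By the ratio of mean FPKM LINC02780 was 619 times as high in WT. CST3 and the pseudogene RPL39P17 were listed at 0 in both CfzR libraries, so their ratios have no finite value. Each CfzR library showed the lower level of S100A4, at -7.31 for replicate 1 and -6.97 for replicate 2 against the WT mean. S100A3, which has no row, lies within the GENCODE span of S100A4 on the same strand, at 153547329 to 153549372. It is upstream of the RefSeq start of S100A4, whose promoter window ends at 153546056. How reads in the shared stretch were assigned is not given in the sources used here. In bulk RNA, fewer cells with a transcript and less of it per cell cannot be told apart.

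S100A6, the calcyclin that binds the ubiquitin-ligase adaptor CACYBP, had 71.9 and 128 FPKM in CfzR, against 256 and 227 FPKM in WT. The CfzR values were lower in both libraries but the transcript stayed well expressed, with a mean of 99.9 ± 39.5 FPKM in CfzR and 241 ± 20.2 FPKM in WT (SD, n = 2 each). The log2 difference was -1.32, of which CfzR replicate 1 alone gave -1.73 and replicate 2 alone -0.91. Only 0.537% of tested genes had a lower difference.

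S100A10, which pairs with annexin A2 at the plasma membrane and has lost calcium binding, had 184 and 241 FPKM in CfzR, against 342 and 396 FPKM in WT. The groups did not overlap, and the log2 difference was -0.80, with -0.998 from CfzR replicate 1 and -0.61 from replicate 2. S100A11, a partner of annexin A1, had 182 and 243.04 FPKM in CfzR, against 287 and 243.83 FPKM in WT. Its groups just failed to touch, since CfzR replicate 2 and WT replicate 2 were nearly equal. Its log2 difference of -0.33 rested mainly on CfzR replicate 1 (-0.54, against -0.12 for replicate 2). Processed pseudogenes of S100A11 are annotated elsewhere in the genome, so its reads may be shared.

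S100A13, which takes part in the release of the growth factor FGF1, had 96.7 and 201 FPKM in CfzR, against 134 and 183 FPKM in WT. The groups overlapped, with CfzR replicate 1 the lowest and CfzR replicate 2 the highest of the 4 libraries. The log2 difference was -0.16 over all libraries, 0.36 without CfzR replicate 1, -0.69 without CfzR replicate 2 and 0.06 without WT replicate 2, so its sign depended on which library was counted. It was 0.03 under quantile normalization of all 4 libraries. S100A13 overlaps S100A1 on the other strand, and whether counting used strand is not given in the sources used here. S100PBP, a nuclear protein that binds S100P and is not itself an S100 protein, had 18.9 and 16.2 FPKM in CfzR, against 15.4 and 15.6 FPKM in WT. It was the member with higher values in CfzR, by a log2 difference of 0.17 (0.06 without CfzR replicate 1 and 0.27 without CfzR replicate 2). S100PBP overlaps YARS on the other strand.

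**Figure D1:**
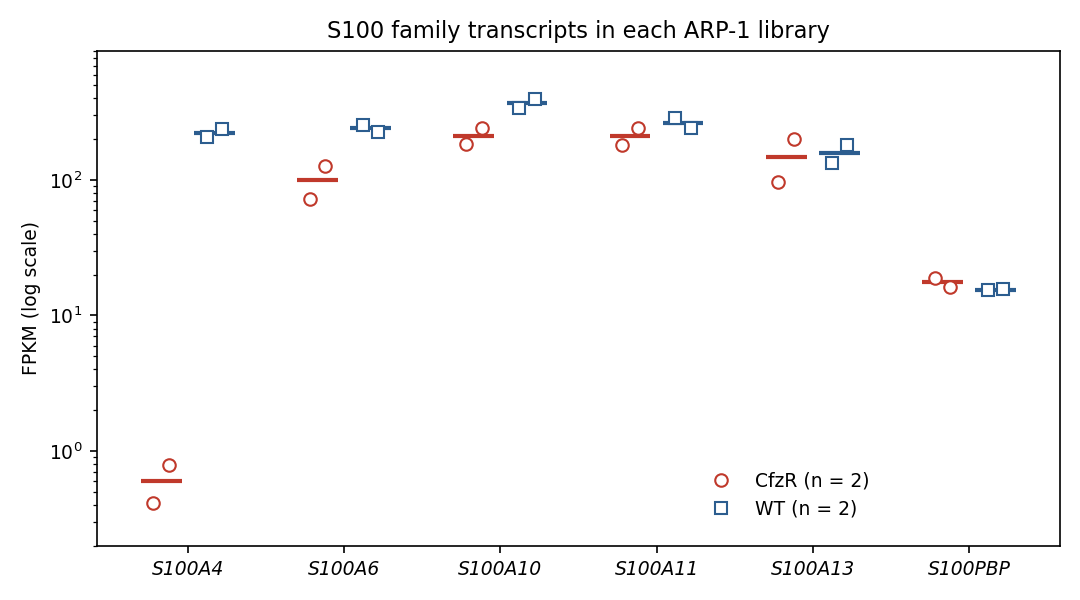
FPKM on a log axis for the 6 members with values, in CfzR (circles) and WT (squares), with 1 point per library and a bar at the group mean. S100A4 sits below 1 FPKM in both CfzR libraries and at 209 and 240 FPKM in the WT libraries. Each of the other 5 members varies far less across the 4 libraries, the widest on this axis being S100A6 at 71.9 to 256 FPKM.

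Taking all members by their groups, 5 of 6 did not overlap between CfzR and WT, 4 with CfzR below and 1 with CfzR above, where 44.7% of all tested genes did not overlap (22.6% with CfzR below and 22.1% with CfzR above). Negative differences were held by 5 of 6 members and by 52.9% of all tested genes. In the limma fit over all genes 0.350% were called (0.246% higher and 0.104% lower in CfzR), and no call is given for the members. Nothing is read from these shares, because the family was chosen on this comparison. The members' median log2 difference was -0.57, and -0.33 without S100A4, beside -0.02 for all tested genes.

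The order of the members' mean levels differed between the groups in the place of S100A4 and in that of S100A6. S100A6 stood below S100A13 in CfzR, where their values overlapped, and above it in WT. In CfzR, S100A10 (213 ± 40.8 FPKM) and S100A11 (212 ± 43.4 FPKM) led, followed by S100A13 (149 ± 73.9 FPKM), S100A6, S100PBP (17.5 ± 1.89 FPKM) and S100A4 (0.602 ± 0.263 FPKM), all as mean ± SD of 2 libraries. Each of the first 4 overlapped its neighbour in that order, and S100PBP and S100A4 stood clear. In WT, S100A10 (369 ± 37.7 FPKM) led, followed by S100A11 (265 ± 30.5 FPKM), S100A6, S100A4 (224 ± 21.9 FPKM), S100A13 (158 ± 34.4 FPKM) and S100PBP (15.5 ± 0.177 FPKM). There S100A11, S100A6 and S100A4 overlapped from one to the next. The level of S100A4 relative to S100A6, its nearest tested neighbour, was 0.00578 and 0.00617 in CfzR replicates 1 and 2, against 0.817 and 1.06 in WT. S100A4 made up 0.0752% and 0.0949% of the summed FPKM of the 6 members in CfzR, against 16.8% and 18.4% in WT. The other 5 members together summed to 553 and 830 FPKM in CfzR, against 1034 and 1065 FPKM in WT. That sum was lower in CfzR even without S100A4, and lowest in replicate 1. Over all genes the sum was also lower in CfzR, at 673265 and 877849 FPKM, against 918617 and 955284 FPKM in WT. As a share of it the 6 members, S100A4 included, held 0.0822% and 0.0946% in CfzR, against 0.135% and 0.137% in WT.

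In CfzR replicate 1 shorter transcripts lay lower against WT, so members are set beside their length classes. Among 2078 tested genes whose longest annotated transcript is at most 1000 bases, the median difference from the WT mean was -0.44 in CfzR replicate 1 and -0.01 in CfzR replicate 2, on the log2 scale. S100A4 (755 bases), S100A6 (673 bases) and S100A11 (594 bases) belong to this class. S100A10 (1202 bases) belongs to the class up to 2000 bases, with medians of -0.24 in CfzR replicate 1 and 0.01 in replicate 2. S100A11 followed its class closely, at -0.54 and -0.12. S100A6 lay below its class in each CfzR library, at -1.73 and -0.91, and so did S100A10, at -0.998 and -0.61. S100A13 (2184 bases) did not follow its class, at -0.69 in CfzR replicate 1 and 0.36 in replicate 2. The class medians there were -0.05 and 0.00. Classes rest on the longest annotated transcript of each gene, and the forms expressed here are not known. A shorter form could place S100A10 or S100A13 in another class. Trends with length and GC share were then taken out of each library, a step chosen after seeing the data. The log2 differences became -6.92 for S100A4, -1.05 for S100A6, -0.63 for S100A10, -0.10 for S100A11, -0.08 for S100A13 and 0.04 for S100PBP. That step removes any difference that goes with length or GC share, whatever its source. The cause of the length trend was not tested.

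**Figure D2:**
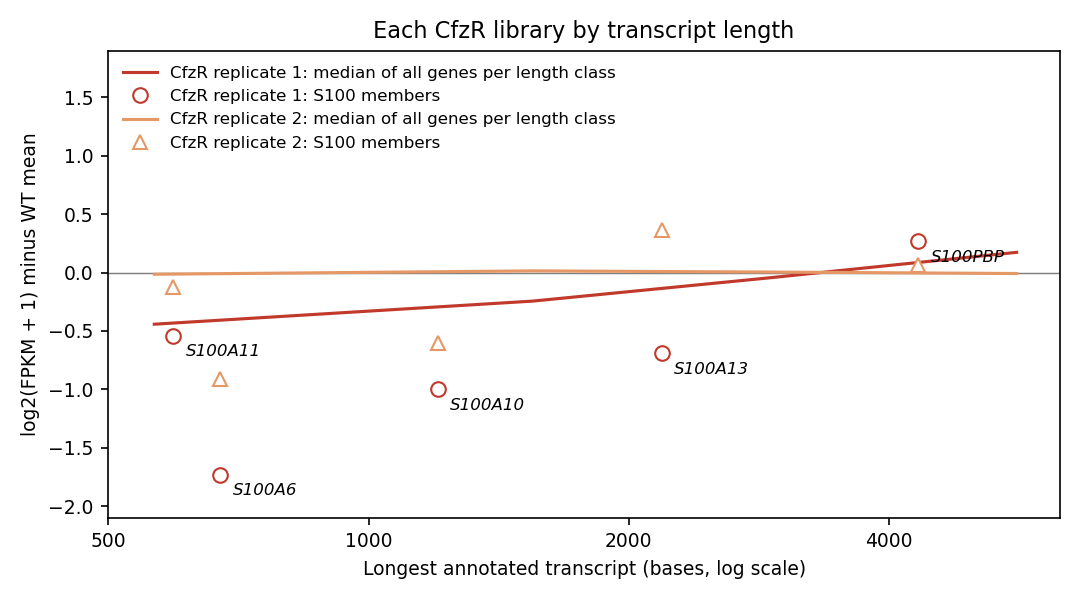
Difference of each CfzR library from the WT mean, in log2(FPKM + 1), against the longest annotated transcript in bases, for S100 members other than S100A4 (circles, CfzR replicate 1; triangles, CfzR replicate 2), with lines joining the medians of all tested genes in 4 length classes. The line of replicate 1 runs upward from -0.44 to 0.17 with length and that of replicate 2 stays near 0; S100A6 and S100A10 lie below both.

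No tested gene around S100A4 had a difference near its own, and the largest among the closest ones was that of S100A6, the nearest tested gene. S100A6 was lower in both CfzR libraries (log2 difference -1.32) and is counted with the members. Within 1 Mb, 24 tested genes outside the member list had a position, all on the higher-coordinate side. On the lower side S100A6 was the sole tested gene in that window, and the next were S100A11 and S100A10. In limma 0 of the 24 neighbours passed an adjusted p of 0.05, and 0 had an unadjusted p under 0.05, where 0.350% and 11.1% of all tested genes did. Their log2 differences ran from -0.61 for the pseudogene RPSAP17 to 0.63 for the antisense transcript ENSG00000273026, with a median of -0.06. The groups did not overlap for 11 of them (45.8%), close to the 44.7% of all tested genes.

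Beyond S100A6 and S100A13, described above, the nearest neighbours are given gene by gene. S100A1, a cardiac and muscle S100 protein, was hardly expressed, at 0.859 and 0.754 FPKM in CfzR and 1.24 and 1.21 FPKM in WT (log2 difference -0.30, SE 0.25, limma adjusted p = 0.659). It was the single gene of 12 further S100 family genes with a row. CHTOP, a chromatin and mRNA export factor 90.4 kb from S100A4 by their lower-coordinate ends, had 62.3 and 68.0 FPKM in CfzR, against 66.2 and 70.7 FPKM in WT (log2 difference -0.07, limma adjusted p = 0.90). The groups of CHTOP overlapped. SNAPIN, a subunit of the lysosome-positioning complex BORC, had 42.5 and 44.8 FPKM in CfzR, against 35.6 and 32.5 FPKM in WT, with CfzR above WT in every library (log2 difference 0.35, limma adjusted p = 0.528). ILF2, a double-stranded RNA-binding factor studied in myeloma with 1q21 gain, had 139 and 213 FPKM in CfzR, against 190 and 244 FPKM in WT, and its groups overlapped (log2 difference -0.32, limma adjusted p = 0.677). The noncoding gene ENSG00000271853, which overlaps S100A13 and CHTOP, had a log2 difference of -0.40 (limma adjusted p = 0.629), and the antisense gene ENSG00000272030 had one of 0.01 (limma adjusted p = 0.986). Beyond S100A10 on the lower side, THEM4, a thioesterase, and the antisense transcript TDRKH-AS1 had log2 differences of 0.11 and 0.16 (limma adjusted p = 0.840 and 0.843). Further out, IL6R, the receptor of the myeloma growth factor interleukin 6, had 7.19 and 7.78 FPKM in CfzR, against 8.65 and 9.21 FPKM in WT (log2 difference -0.23, limma adjusted p = 0.664). On the whole of chromosome 1, a set that includes the members, 9 of 1325 tested genes (0.679%) were called, 3 higher and 6 lower in CfzR. Over all tested genes 0.350% were called, 0.246% higher and 0.104% lower. The chromosome's median log2 difference was 0.01. Nothing is read from this count, since S100A4 was chosen on this comparison.

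**Figure D3:**
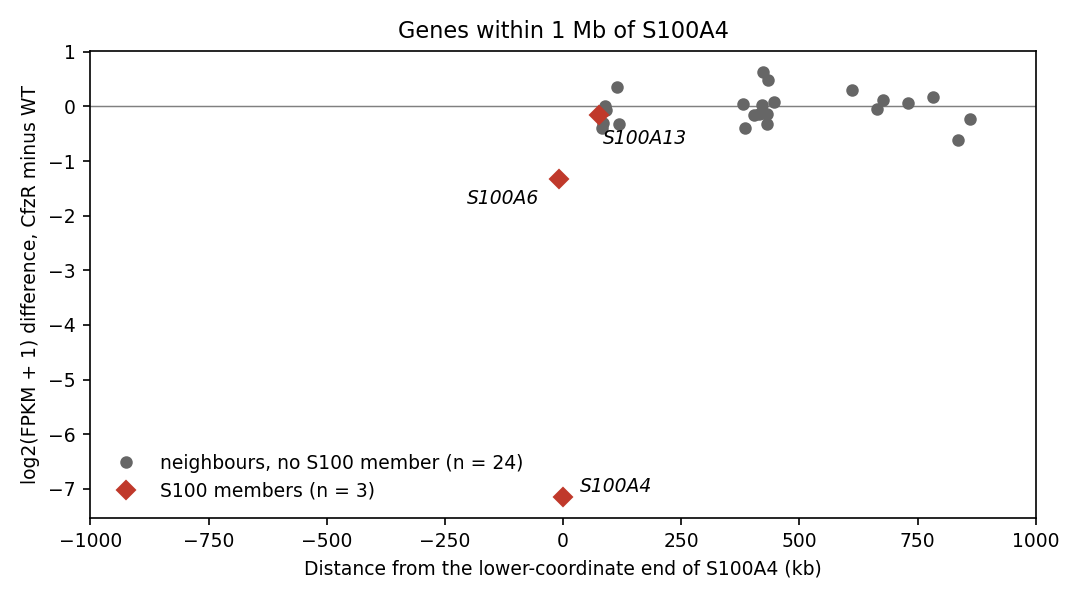
Log2(FPKM + 1) difference, CfzR minus WT, of 24 tested neighbours (grey circles) and 3 S100 members (red diamonds) by distance from the lower-coordinate end of S100A4 in kb. S100A4 lies at -7.14 and S100A6 beside it at -1.32, while the 24 neighbours lie between -0.61 and 0.63.

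Genes that S100 proteins bind or signal through were taken as a list of 32, of which 25 were tested. None was called in limma at an adjusted p of 0.05 (0 higher and 0 lower), 5 had an unadjusted p under 0.05 (2 higher and 3 lower in CfzR), where 11.1% of all tested genes did, and the list's median log2 difference was 0.00, beside -0.02 for all tested genes. MYH9, the myosin heavy chain that S100A4 binds, had 134 and 106 FPKM in CfzR, against 115 and 93.3 FPKM in WT, with overlapping groups (log2 difference 0.20, limma adjusted p = 0.750). The S100A10 partner ANXA2 had 211 and 254 FPKM in CfzR, against 275 and 302 FPKM in WT (log2 difference -0.32, limma adjusted p = 0.632). AHNAK, a giant scaffold protein that the S100A10 and annexin A2 complex binds, had 56.3 and 36.8 FPKM in CfzR, against 58.4 and 54.5 FPKM in WT (log2 difference -0.30, limma adjusted p = 0.655).

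The lowest and highest differences of that list fell on annexins and on proteins with few transcripts. ANXA1, the annexin that S100A11 binds, had 0.402 and 0.562 FPKM in CfzR, against 2.16 and 2.15 FPKM in WT, a mean level 0.224 times that of WT (log2 difference -1.09, SE 0.25, limma adjusted p = 0.181). ANXA11, a partner of S100A6, had 64.4 and 127 FPKM in CfzR, against 177 and 173 FPKM in WT (log2 difference -0.94, SE 0.33, limma adjusted p = 0.367). In both annexins the CfzR libraries were below the WT libraries, and for ANXA11 replicate 1 was the lower, with a log2 difference of -0.45 without it and -1.43 without replicate 2. CACYBP, the partner of S100A6, had 71.9 and 58.4 FPKM in CfzR, against 46.1 and 51.3 FPKM in WT (log2 difference 0.41, limma adjusted p = 0.509). PPFIBP1, the liprin that S100A4 binds, had 2.90 and 2.46 FPKM in CfzR, against 1.41 and 0.652 FPKM in WT (log2 difference 0.88, limma adjusted p = 0.318). SYT1, a synaptic calcium sensor that associates with S100A13 and FGF1, had 4.60 and 2.99 FPKM in CfzR, against 1.71 and 1.64 FPKM in WT (log2 difference 0.82, limma adjusted p = 0.310). MYH9, ANXA2, AHNAK and CACYBP were picked from the list after their values were seen, as partners of the members described.

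Other EF-hand proteins were compared to see whether calcium sensors as a class moved with S100A4. Of 35 tested, 0 were called in limma, 3 had an unadjusted p under 0.05 (1 higher and 2 lower, where 11.1% of all tested genes did), and the median log2 difference was -0.13. RCN3, a calcium-binding chaperone of the endoplasmic reticulum, had 11.1 and 21.5 FPKM in CfzR, against 51.2 and 53.9 FPKM in WT (log2 difference -1.70, SE 0.30, limma adjusted p = 0.106). GCA, the granulocyte protein grancalcin, had 3.37 and 4.27 FPKM in CfzR, against 0.485 and 0.718 FPKM in WT (log2 difference 1.59, SE 0.25, limma adjusted p = 0.0746). The groups of each lay well apart, and GCA passed the filter on low values only through its CfzR values. RCN3 and GCA were called in limma when a WT library was left out, with adjusted p of 0.00189 and 0.0232 without WT replicate 1 and of 0.00621 and 0.00788 without WT replicate 2, in fits whose error comes from the CfzR pair and from values pooled over genes. Their adjusted p ran from 0.00189 to 0.189 and from 0.00788 to 0.213 over the alternatives without a replicate block. NCS1, a neuronal calcium sensor, and RCN2, a relative of RCN3, had log2 differences of -0.76 and 0.39 (limma adjusted p = 0.367 and 0.504).

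S100A4 is also called fibroblast-specific protein and is used as a marker of mesenchymal change, so genes of that programme were counted. Of 20 listed, 11 were tested and 0 were called in limma, with 2 at an unadjusted p under 0.05, both higher in CfzR (11.1% of all tested genes reached it), and a median log2 difference of 0.06. VIM, the intermediate filament vimentin, had 1969 and 1613 FPKM in CfzR, against 2552 and 2130 FPKM in WT (log2 difference -0.39, limma adjusted p = 0.692). FN1, the matrix protein fibronectin, had 3.95 and 4.71 FPKM in CfzR, against 1.26 and 1.49 FPKM in WT (log2 difference 1.16, SE 0.23, limma adjusted p = 0.137). Vimentin stayed abundant in every library, and fibronectin was low in every library and higher in each CfzR library. CTNNB1, the adhesion and Wnt effector beta-catenin, and ZEB1, a repressor of epithelial genes, had log2 differences of 0.55 and -0.17 (limma adjusted p = 0.372 and 0.764). Extracellular S100A4 can induce some metalloproteinases, so metalloproteinases and their inhibitors were counted too. Of 18 listed, 10 were tested and 0 were called in limma. An unadjusted limma p under 0.05 was reached by 2 (1 higher and 1 lower, against 11.1% of all tested genes). The median log2 difference was 0.12. MMP17, a membrane-anchored metalloproteinase, had 1.14 and 1.27 FPKM in CfzR, against 2.85 and 2.996 FPKM in WT (log2 difference -0.83, limma adjusted p = 0.260). RECK, a membrane inhibitor of metalloproteinases, had 4.92 and 5.80 FPKM in CfzR, against 2.69 and 3.27 FPKM in WT (log2 difference 0.68, limma adjusted p = 0.328). MMP14 and ADAM9 had log2 differences of -0.45 and 0.64 (limma adjusted p = 0.558 and 0.557), and that of ADAM9 rested on CfzR replicate 1, without which it was 0.058. The counts of 0 do not show that these genes were unchanged, since in simulated data of this size the test recovered 0% of genes with a log2 change of 1, 44.8% with a change of 2 and 87.9% with a change of 4.

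**Figure D4:**
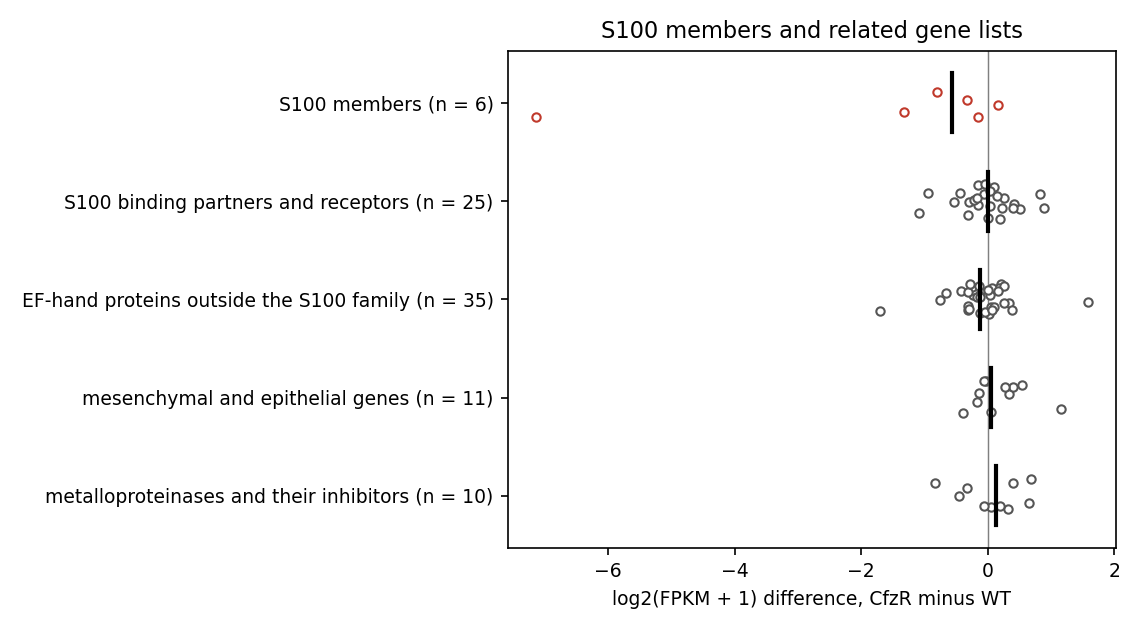
Log2(FPKM + 1) difference, CfzR minus WT, of the 6 S100 members (red, top row) and of the tested genes of 4 related lists (grey), with 1 point per gene, vertical jitter and a black bar at each median. The 4 list medians lie between -0.13 and 0.12, and no list gene comes near S100A4 at -7.14.

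The genes whose pattern was most like that of S100A4 were found by the smallest Euclidean distance between profiles of log2(FPKM + 1), centred on each gene's mean over the 4 libraries. CST3, a secreted inhibitor of cysteine proteases on chromosome 20, was the closest, at a distance of 1.01. It was listed at 0 in both CfzR libraries, against 71.6 and 70.5 FPKM in WT. The long noncoding RNA LINC02780 followed at a distance of 2.36, listed at 0 and at 0.0917 FPKM in CfzR, against 23.7 and 33.1 FPKM in WT. It lies on chromosome 1 at 3976133 to 4012699, far from S100A4 on the other arm. The pseudogene RPL39P17 on chromosome 3 (distance 2.52), the noncoding RNA OVAAL on chromosome 1 (distance 3.34) and GNLY, a cytolytic granule protein gene on chromosome 2 (distance 3.84), came next. With 2 libraries a group, these distances mostly order genes by how far they fell, and none of the 5 lies in 1q21.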

How the data were processed

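RNA was extracted with TRIzol and sequenced by an mRNA protocol, per the labels' protocols. The tools STAR and Cufflinks appear, without versions, per the submitters' processing notes; build, annotation and strandedness were not given in the sources used here. A single table of FPKM, 1 column per library, was deposited. Columns named for the drug are CfzR; the control columns were assigned to WT, the only other group. The lowest row mean was 0.500 FPKM. No shared step of 1 read was found (the commonest ratio between replicates held 0.429% and 0.437% of low genes), so no counting error can be given.

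Symbols were matched by Ensembl ID for 15027 of 15201 genes and GENCODE release 29 positions for 14496. Only genes averaging 1 FPKM or more entered the tests (13411). Among genes given with a p-value, ANXA1, NCS1, MMP14, S100A1 and ENSG00000271853 averaged under 1 FPKM in CfzR and entered only through WT. GCA averaged under 1 FPKM in WT and entered only through CfzR. Values were compared as log2(FPKM + 1) with limma 3.58.1 in R 4.3.3 (mean-variance trend, Benjamini-Hochberg over all genes, threshold 0.05, two-sided). With 2 libraries per group no permutation test can reach that threshold. The alternatives tried were a pseudocount of 0.1 or 5, keeping low genes, keeping only those at 5 FPKM or more, scaling by trimmed means of M-values (TMM), quantile normalization, no trend, a replicate block, leaving out each library, windows of 0.5 and 5 Mb and, added after seeing the data, a length and GC correction by splines with 4 degrees of freedom on 12896 genes (96.2%). The members and the 6 gene lists, of which 1 is not reported here, were chosen with earlier results of these data known. Named were all members, the 5 nearest tested genes on each side of S100A4, called neighbours and list genes, the 2 highest and 2 lowest of each list, and the 5 genes most like S100A4; SNAPIN, ILF2, IL6R and the lowest and highest neighbour were added after their values were seen. Procedures were tested on simulated data with 13411 genes.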

Additional observations from a re-analysis of the deposited data

How the results depend on the processing

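The log2 difference of S100A4 was negative under every alternative, between -8.37 with a pseudocount of 0.1 and -5.35 with a pseudocount of 5, and it was -6.92 after the length and GC correction. With 1 library left out it ran from -7.31 to -6.97, and for S100A6 from -1.73 to -0.91, S100A10 from -0.998 to -0.61, S100A11 from -0.54 to -0.12, S100A13 from -0.69 to 0.36 and S100PBP from 0.06 to 0.27. Quantile normalization gave -0.52 for S100A10 and -0.062 for S100A11 and turned S100A13 positive, at 0.030, and the length and GC correction gave 0.042 for S100PBP; the cause was not tested. The median of the neighbours of S100A4 was 0.021 in a window of 5 Mb, which reaches beyond 1q21, and in the window of 1 Mb it ran from -0.135 to -0.028 with 1 library left out. Over all genes, 33 were higher and 14 lower, against 18 and 9 with a filter at 5 FPKM, where fewer genes were tested. Leaving out 1 library gave 8 to 118 higher and 7 to 142 lower, and 0 to 2 EF-hand genes. Those fits keep a lone library, assumed to vary like the other group.

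The replicate numbers have no stated meaning. Deviations of same-numbered libraries correlated at 0.252 across genes, with only 2 pairs. With the replicate block, which leaves 1 residual degree of freedom, 487 genes were higher and 755 lower, and 1 neighbour, 4 binding partners, 2 EF-hand genes, 1 mesenchymal gene and 1 metalloproteinase were called. Of 199 alternative values, 172 stayed within the replicate spread or within 1.5 times the count, 27 moved further and 0 turned the sign of S100A4. The tally does not measure stability, since some values could not move. A member's log2 difference is the same by construction under a changed filter, without a trend and with the block. The sign of S100A4 could hardly turn either, at 0.416 and 0.788 FPKM in CfzR against 209 and 240 FPKM in WT. Counts that stayed at 0 and the sign changes of S100A13 are also among the 172. Depth is unknown, so levels near 0 carry no counting limit.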
